A study of Oncorhynchus tshawytscha with 17 samples.

Results

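Genes of sterol synthesis, fatty acid oxidation, peroxisome assembly and related lipid pathways were measured in the hindgut of 17 Chinook salmon (Oncorhynchus tshawytscha). The members are the genes listed under a symbol of sterol synthesis, fatty acid oxidation and activation, peroxisome assembly, glycerolipid synthesis or the apolipoprotein name pattern, 35 of the 42554 named genes in the count table. Genes carried under LOC identifiers are not members. The members are 5 sterol synthesis genes, 1 sterol regulator, 6 genes of mitochondrial and 3 of peroxisomal oxidation, 6 peroxins, 6 acyl-CoA synthetases, 1 fatty acid elongase, 2 glycerolipid enzymes, 1 patatin lipase and 4 genes with an apo name. These roles were assigned from the gene symbols. Where each protein lies in the cell was not measured, so mitochondrial and peroxisomal are names of roles.

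There were 6 healthy control fish, and for 10 days 5 further fish were given antibiotics and 6 were given probiotics. All were diploid and were killed with clove oil, and total RNA of the hindgut lining was sequenced. The sources used here give no agent, strain, dose or age. Fish are called by the number and letter of their titles after ctl, abx or pro: ctl12A to ctl12C, ctl35A to ctl35C, abx67A to abx67C, abx91A, abx91B, pro115A to pro115C and pro139A to pro139C. What the 6 numbers in these names stand for is not in the labels, and each number occurs in 1 group. Nothing beyond the titles says how the fish were kept, so p-values measure the spread between these samples.

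As background, cholesterol is built from acetyl-CoA through isoprenoid units, squalene and lanosterol, and in animals the genes of this route are switched on together when sterol in the endoplasmic reticulum is low. Fatty acids are first joined to coenzyme A by acyl-CoA synthetases and are then shortened by oxidation, chiefly in mitochondria, while very long and branched chains start in peroxisomes. Peroxins are the proteins that build peroxisomes and carry enzymes into them. Enterocytes, the absorptive cells of the gut lining, carry out these processes and also handle dietary lipid.

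Depth was 28.6 to 61.1 M counts per fish, and the members held 0.191 to 0.281% of them. Levels are given as CPM, counts scaled to the TMM-adjusted library size. Of the 35 members 34 were abundant enough to be tested. The exception was apobec4, a member of a cytidine deaminase family that the name pattern brought in, with at most 0.0454 CPM and 6 reads in all. The labelled tissue was checked with 15 enterocyte genes: vil1, the brush border protein villin, stood at 1225 to 2704 CPM, cubn, the endocytic receptor cubilin, at 3421 to 6083 CPM and fabp6, the ileal bile acid binding protein, at 717 to 5466 CPM. Both listed copies of the peptide transporter were near 0, slc15a1 with at most 0.314 CPM and slc15a1b with at most 0.203 CPM. Neither was tested, and the other 13 markers were. Among those 13, lrp2 was scarce too, with at most 1.03 CPM, while slc5a1 stood at 213 to 348 CPM and fabp2 at 14.3 to 150 CPM.

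Per length, the most abundant members were among the oxidation and activation genes, though not all of these ranked high. The level per kilobase of listed exon length had a median over fish of 109 CPM per kb for hadhb, the thiolase subunit of the mitochondrial trifunctional protein, 105 for acsl5, a long-chain acyl-CoA synthetase, 92.2 for acox3, a peroxisomal acyl-CoA oxidase, and 90.8 for echs1, the mitochondrial enoyl-CoA hydratase. These first 4 places overlapped widely between fish, with 95.1 to 183 CPM per kb for hadhb, 75.8 to 127 for acsl5, 72.2 to 129 for acox3 and 58.0 to 137 for echs1, so their order is not resolved. Below them came acsf2, a medium-chain acyl-CoA synthetase, at 53.4 CPM per kb and acss1, a mitochondrial acetyl-CoA synthetase, at 51.0. The sterol enzymes lay in the middle of the order, from 18.8 CPM per kb for dhcr7 to 13.1 for fdps. The peroxins ran from 16.7 CPM per kb for pex11g to 1.89 for pex6. At the foot stood elovl7, a fatty acid elongase, at 0.575, apom, a lipocalin of plasma lipoproteins, at 0.199 and insig2 at 0.0844.

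**Figure D1:**
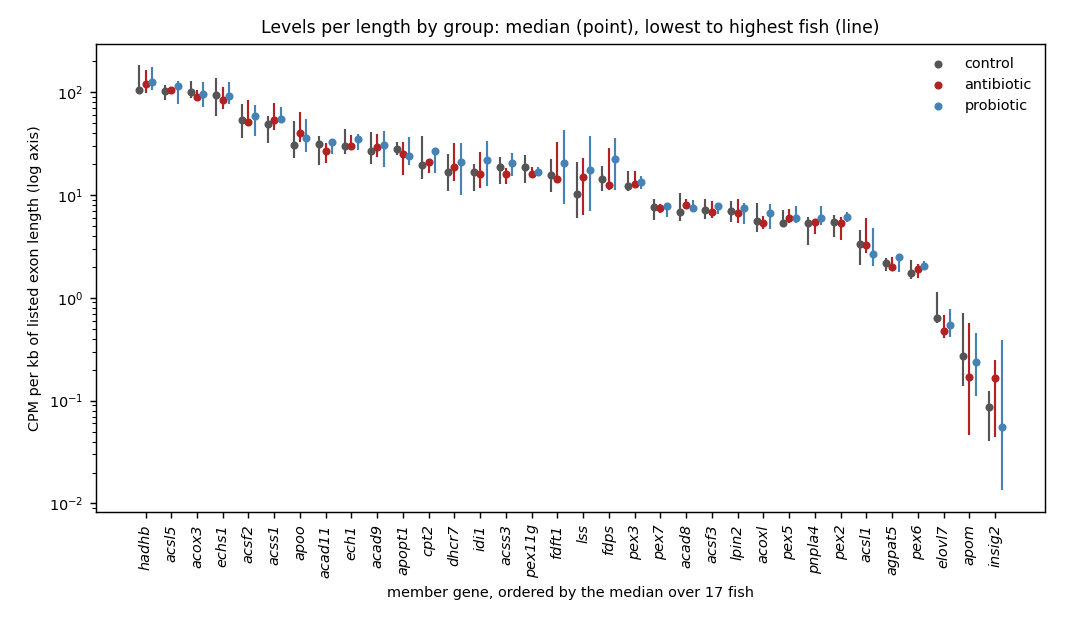
Level of the 34 tested members per kilobase of listed exon length, on a log axis, in 6 controls, 5 antibiotic and 6 probiotic fish. Points are group medians and lines run from the lowest to the highest fish; hadhb leads with a median of 109 CPM per kb over all fish and the 3 group ranges of every member overlap.

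Among the 32 members with 1 CPM or more in every fish, the sterol synthesis genes had the 5 largest ratios of the highest to the lowest fish. The ratio was 6.18 for lss, 5.17 for fdft1, 3.30 for fdps, 3.21 for dhcr7 and 3.07 for idi1. Close below idi1 came acsl1 at 2.94, elovl7 at 2.84 and apoo at 2.79, so only lss and fdft1 stood well clear of the other members. The ratio was 1.51 to 1.86 for the 6 peroxins and 1.89 to 2.63 for the 6 mitochondrial genes. The same few fish were high for all 5 sterol genes.

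The early steps were idi1, which interconverts the isoprenoid units, and fdps, which joins them to farnesyl diphosphate. idi1 ranged from 20.6 to 37.7 CPM in controls with a median of 30.9, and from 22.9 to 63.2 CPM in probiotic fish with a median of 40.6. In antibiotic fish it was 29.6 CPM in abx67A, 48.4 in abx67B, 21.9 in abx67C, 25.1 in abx91A and 37.7 in abx91B. The 2 probiotic fish pro115C and pro139C, at 63.2 and 62.6 CPM, stood above all other fish. fdps ranged from 20.8 to 37.0 CPM in controls (median 27.2) and from 21.6 to 68.8 CPM in probiotic fish (median 43.5). In antibiotic fish fdps was 55.7 CPM in abx67B and 21.7 to 24.9 in the other 4. For fdps 4 of 6 probiotic fish lay above every control, and the groups still overlapped.

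Squalene is made by fdft1, squalene synthase. Its epoxide, formed in a step between, is closed to lanosterol by lss, lanosterol synthase. fdft1 ranged from 42.6 to 89.3 CPM in controls (median 63.0) and from 33.1 to 171 CPM in probiotic fish (median 82.6). In antibiotic fish it was 57.8 CPM in abx67A, 130 in abx67B, 52.4 in abx67C, 52.6 in abx91A and 61.8 in abx91B. One antibiotic fish and 3 probiotic fish exceeded every control, while pro115B was below them all. lss ranged from 23.2 to 80.7 CPM in controls (median 39.1) and from 26.8 to 144 CPM in probiotic fish (median 68.1). In antibiotic fish lss was 63.3 CPM in abx67A, 88.3 in abx67B, 57.6 in abx67C, 24.5 in abx91A and 51.3 in abx91B. The median lss level of probiotic fish was higher than that of controls, but ctl12C, at 80.7 CPM, was above 4 of the 6 probiotic fish.

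Among the last steps is dhcr7, the reductase that turns dehydrocholesterol into cholesterol. dhcr7 ranged from 25.6 to 58.8 CPM in controls (median 39.5), from 31.9 to 75.2 in antibiotic fish (median 44.5) and from 23.6 to 75.7 in probiotic fish (median 48.8). Its groups overlapped throughout, with abx67B and pro139C above the rest.

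**Figure D2:**
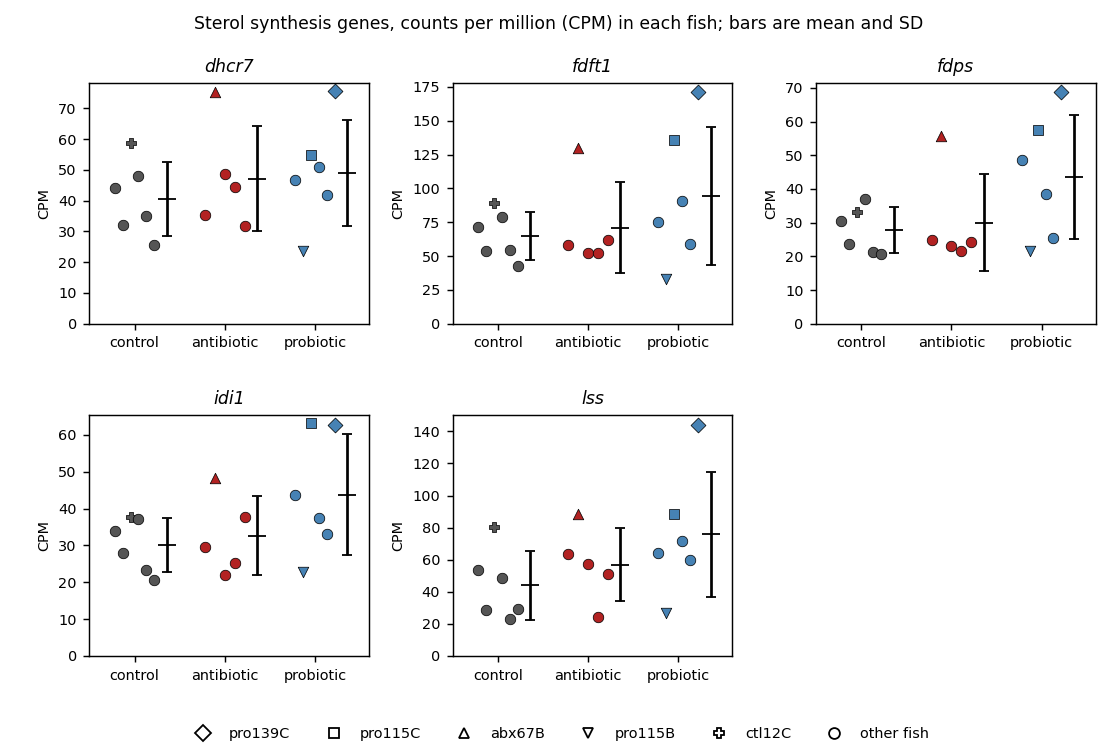
CPM of the 5 sterol synthesis genes in every fish, with the group mean and SD beside the points. pro139C (diamond), pro115C (square) and abx67B (upward triangle) are high in each panel, and pro115B (downward triangle) is low; lss reaches 144 CPM in pro139C against at most 80.7 CPM in controls.

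The sterol regulator insig2, which holds the sterol sensor complex in the endoplasmic reticulum, was scarce, with 260 reads over all fish. It ranged from 0.109 to 0.337 CPM in controls, 0.119 to 0.669 in antibiotic fish and 0.0361 to 1.05 in probiotic fish. With so few reads its level could not be compared between groups. Another gene that RefSeq names insig2 is carried under a LOC identifier and is not a member.

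Ranked over the 17 fish, pro139C was the highest for 4 of the 5 sterol genes and pro115C for 1. Both pro139C and abx67B were among the top 3 fish for 5 of 5, and pro115C for 4. At the low end pro115B was among the bottom 3 for 5 of 5, ctl35C for 4, and ctl35B and abx67C for 2. The probiotic group therefore held both the highest fish and one of the lowest. These ranks were not particular to the sterol genes. Over all 34 tested members, sterol genes included, ctl12C was among the top 3 for 21, pro139C for 17, abx67B for 14 and pro115C for 13. At the low end ctl12B was among the bottom 3 for 19, and pro115B, ctl35B and ctl35C for 14 each.

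The 5 genes moved together from fish to fish. Over 17 fish the 10 pairs of sterol genes had Pearson correlations of log2(CPM + 0.5) from 0.74 to 0.93, with a median of 0.84, against a median of 0.37 over all 561 pairs of members. Such agreement was not confined to sterol genes: the 15 pairs of mitochondrial oxidation genes were all positive too, from 0.54 to 0.91 with a median of 0.69, and 13 had an adjusted Pearson permutation p under 0.05. All 10 sterol pairs had an adjusted permutation p under 0.05 by Pearson and by Spearman, with adjustment over 561 pairs. For fdft1 and fdps, the closest pair, Pearson's r was 0.93 and Spearman's rho 0.94, each with the smallest p that 100000 permutations give, 1e-05. Without the 2 fish farthest from the fdft1 median r was 0.88. For dhcr7 and idi1, the loosest pair, r was 0.74 (permutation p = 8e-04, adjusted 0.00701) and rho 0.67 (permutation p = 0.00429, adjusted 0.0207), and without the 2 fish farthest from the dhcr7 median r was 0.65. With group means removed the 10 correlations were 0.76 to 0.94. Index plate column 12, which the titles give, held ctl12C, ctl35A, abx67B, abx91A, abx91B and, of the probiotic fish, only pro139C. Within that column the correlations were 0.67 to 0.98. Within the 6 probiotic fish they were at least 0.89, and within the 6 controls 0.85 to 0.99. All genes of a fish share its library and scaling, and pairs of genes outside the members were not correlated for comparison.

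Among sterol genes outside the membership rule, 2 were highest in the same 3 fish. hmgcs1, which makes the HMG-CoA that starts the route and is listed under a LOC identifier that the reference names, was 145 CPM in pro139C, 93.9 in abx67B and 56.7 in pro115C, and 5.08 to 44.1 CPM in the other fish. tm7sf2, a sterol reductase, was 149 CPM in pro139C, 117 in abx67B and 111 in pro115C, and 31.5 to 97.7 CPM elsewhere. These 2 genes were picked for description after their values were seen. hmgcs1 comes from 38 LOC genes whose RefSeq symbol matches the member name pattern, and these were not ranked by fish. The list of other sterol genes holds tm7sf2 but not hmgcs1. Over its 18 tested genes the pattern was looser. pro139C was among the top 3 fish for 11, abx67B for 10, ctl12C for 7 and pro115C for 5, and pro115C was among the bottom 3 for 3.

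Levels of other tissues differed between the same fish. The summed level of the 15 enterocyte markers was 16554 CPM in abx67B, 16366 in ctl12C and 15970 in pro139C, but 10871 in pro115C, and 9053 to 16366 CPM over controls, 9233 to 16554 over antibiotic fish and 9379 to 15970 over probiotic fish. The 6 smooth muscle markers summed to 990 CPM in pro139C and 1148 in abx67B, the lowest of 17 fish, to 1386 to 3805 CPM in controls and to 1610 in pro115C, and myocd, a defining muscle regulator, had a count in 5 fish, with at most 0.0902 CPM. The 5 pancreas markers summed to 467 CPM in pro139C and to 8.86 to 84.6 CPM elsewhere, with prss1 at most 1.26 CPM. The 22 liver markers summed to 156 CPM in abx67B, 183 in abx67C and 113 in pro115B, and to 18.9 to 84.5 CPM in the others. In bulk tissue fewer cells of a type and less RNA per cell cannot be told apart. Beyond the fit with smooth muscle as a covariate, given for the sterol genes in the comparisons with controls, the part of these tissues in the sterol pattern was not tested.

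**Figure D3:**
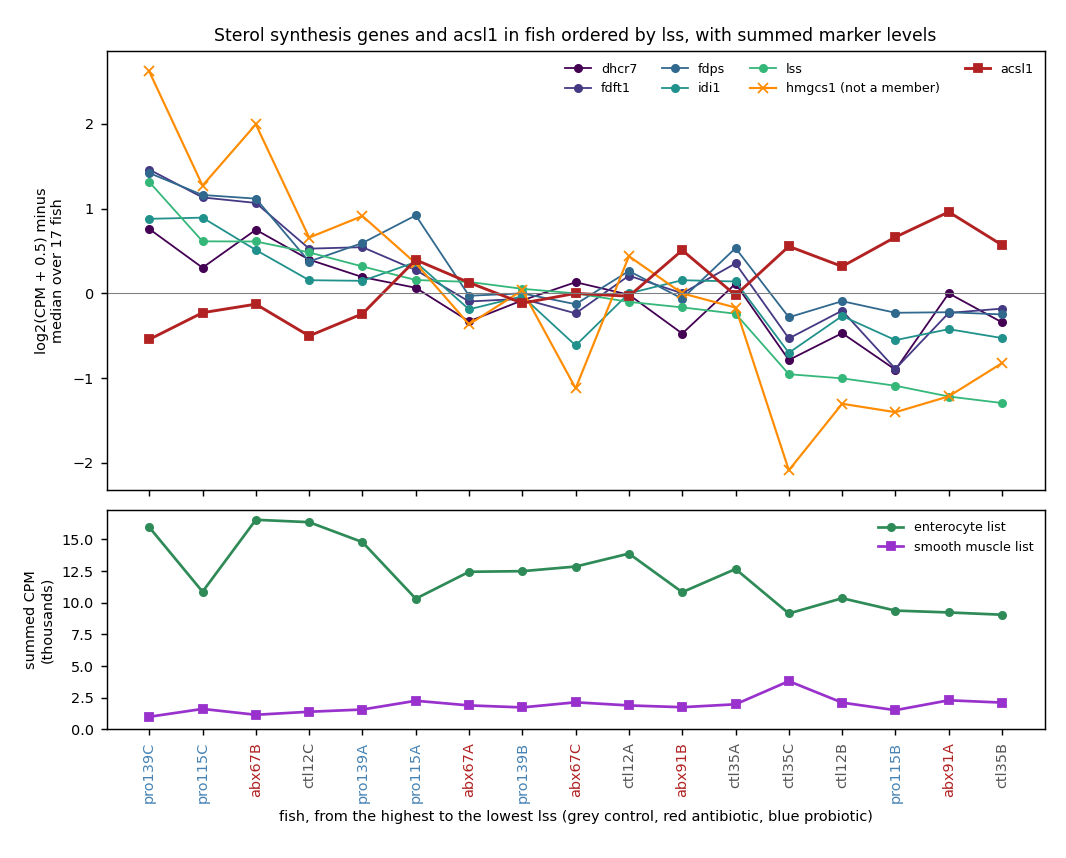
Upper panel, log2(CPM + 0.5) of the 5 sterol genes, acsl1 and hmgcs1 minus each gene's median, in 17 fish ordered by lss. Lower panel, summed CPM of the enterocyte and smooth muscle markers in the same fish; the sterol genes fall from left to right, acsl1 runs from 8.42 CPM in pro139C to 24.8 CPM in abx91A the other way, and the smooth muscle sum is lowest in pro139C.

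Against controls, no gene of the 30221 tested was called in antibiotic fish by edgeR's quasi-likelihood test (Benjamini-Hochberg adjusted p under 0.05), so the 0 members called compare with 0% of all genes. DESeq2 called 26 genes (0.0860%) and 0 members. An unadjusted edgeR p under 0.05 was reached by 1 of 34 members, against 6.21% of all tested genes, a share no higher than the background. The count of 1 was 0 without abx67A, abx91B or ctl12B, 0 without ctl12A and pro139A together, 0 without abx67C, abx91B, pro139B and pro139C together, and 0 with the title number as a random block. It was 2 without ctl12C or abx91A, 2 with the index plate column as a factor, and 3 without ctl35B. The share of all genes is not given for these alternative fits, so their counts cannot be set against a background. Of the 34, 20 were higher and 14 lower; their log2 fold changes had a median of 0.02 beside 0.02 for all genes, of which 53.0% were higher. No member separated the groups completely, against 0.483% of all genes.

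The member was elovl7. elovl7 was 1.98, 3.08, 1.82, 2.50 and 2.16 CPM in the 5 antibiotic fish, from abx67A to abx91B, against 2.59 to 5.16 CPM (median 2.86) in controls, a log2 fold change of −0.48 ± 0.22 (SE; edgeR adjusted p = 0.803). It was −0.32 without ctl12C, the control with 5.16 CPM. It did not pass the adjusted threshold.

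All 5 sterol synthesis genes had higher fitted means in antibiotic fish than in controls. Their median log2 fold change was 0.12, and none was called. The values were 0.22 for dhcr7, 0.12 for fdft1, 0.11 for fdps and 0.11 for idi1, with lss given below. The shared direction rested on abx67B: without that fish 1 of the 5 was higher and the median was −0.08. With the index plate column as a factor 1 was higher (median −0.09), which was lss at 1e-05, and with smooth muscle as a covariate 2 were (median −0.10). The log2 fold change of lss was 0.37 with all fish, 0.15 without abx67B and 0.08 with smooth muscle as a covariate.

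The medians of the other roles moved with single fish. Of 6 mitochondrial genes 3 were higher in antibiotic fish (median log2 fold change −0.01), but the median was 0.17 without ctl12C, −0.11 without abx67B and −0.19 with the plate column as a factor. Of 6 peroxins 4 were higher (median 0.03), and the median was 0.09 without ctl12C, −0.03 without abx67B and −0.05 with the plate column. All 3 peroxisomal oxidation genes were lower, with a median of −0.15 that was −0.06 without ctl12A and −0.08 without ctl12C. Of 6 acyl-CoA synthetases 4 were higher, with a median of 0.08 that was −0.01 without abx91A and −0.03 with the plate column. None of these members reached an unadjusted p under 0.05.

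Markers of other cell types leaned in the same comparison, with single fish far from the rest. Of 18 tested liver markers 17 were higher in antibiotic fish than in controls (median log2 fold change 2.18), and 9 had an unadjusted edgeR p under 0.05. All 7 tested erythrocyte markers were lower (median −0.71), as were all 4 tested pancreas markers (median −0.86). In probiotic fish 13 of 18 liver markers were higher (median 0.78), 6 of 7 erythrocyte markers were lower (median −0.61) and 3 of 4 pancreas markers were higher (median 1.15). The liver sum had medians of 38.8 CPM in controls, 38.1 in antibiotic and 34.4 in probiotic fish. It was 156 CPM in abx67B, 183 in abx67C and 113 in pro115B. The pancreas sum was 467 CPM in pro139C, with medians of 15.3 in probiotic fish and 39.8 in controls. The erythrocyte sum was 154 CPM in ctl12B, with medians of 57.2 in controls, 52.0 in antibiotic and 53.3 in probiotic fish. edgeR called none of these markers, and their part in the members' values was not tested.

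In probiotic fish against controls edgeR again called no gene (0% of 30221) and no member. DESeq2 called 34 genes (0.113%) and 0 members. Here 3 of 34 members had an unadjusted edgeR p under 0.05, against 9.71% of all genes, a share no higher than the background. All 3 were higher, against 5.29% of all genes with a p under 0.05 and a higher level. A share by direction is printed for this comparison only. Of the 34, 27 were higher and 7 lower; their log2 fold changes had a median of 0.13 beside 0.0047 for all genes, of which 50.7% were higher. No member separated the groups, against 0.291% of genes.

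The 3 were sterol enzymes. fdps averaged 43.4 ± 18.4 CPM (SD, n = 6) in probiotic fish against 27.8 ± 6.74 CPM (SD, n = 6) in controls, a log2 fold change of 0.64 ± 0.29 (SE; edgeR adjusted p = 0.501). idi1 averaged 43.8 ± 16.3 against 30.1 ± 7.26 CPM, a log2 fold change of 0.54 ± 0.25 (SE; edgeR adjusted p = 0.505). lss averaged 75.8 ± 38.9 against 44.1 ± 21.6 CPM, a log2 fold change of 0.78 ± 0.37 (SE; edgeR adjusted p = 0.514). For each of them the SD was larger in probiotic fish than in controls. None passed the adjusted threshold.

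All 5 sterol genes had higher fitted means in probiotic fish (median log2 fold change 0.54). The value was 0.53 ± 0.33 for fdft1 and 0.27 ± 0.26 for dhcr7 (SE; edgeR adjusted p = 0.595 and 0.729). The median of the 5 stayed positive in every alternative run, from 0.29 with smooth muscle as a covariate to 0.70 without pro115B, and was 0.41 without pro139C and 0.41 without pro115C. The count of 3 members with an unadjusted p under 0.05 became 0 without pro139C, pro115C, ctl12B, ctl35B or ctl35C. It was also 0 with limma-voom, with the smooth muscle covariate, with the title number as a random block, and without abx67C, abx91B, pro139B and pro139C together. It was 1 without pro115A, 1 without ctl12A and pro139A together, 5 with the index plate column as a factor and 6 without ctl12C. For these alternative fits too the share of all genes is not given, so their counts cannot be set against a background. The smooth muscle list itself had 5 of 5 tested genes lower in probiotic fish (median log2 fold change −0.49) and 5 of 5 lower in antibiotic fish (median −0.25).

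The remaining roles had smaller medians in probiotic fish. Of 6 mitochondrial genes 5 were higher (median log2 fold change 0.11), of 6 peroxins 5 (median 0.11), of 6 acyl-CoA synthetases 5 (median 0.11) and of 3 peroxisomal oxidation genes 2 (median 0.10). Single fish moved these values as well: the mitochondrial median was 0.25 without ctl12C, 0.05 without ctl12B and 0.04 without pro139C, and the peroxin median 0.19 without ctl12C and 0.07 without pro115C. The synthetase median was 0.19 without pro115A and 0.04 without ctl35B, and that of peroxisomal oxidation 0.20 without ctl12C and 0.04 without ctl12B. With the smooth muscle covariate the median of all 34 tested members was −0.02 and 16 were higher. The members nearest the unadjusted threshold outside the sterol route were pnpla4, a patatin-like lipase, at 6.26 ± 0.963 against 5.20 ± 0.983 CPM (SD, n = 6 each; log2 fold change 0.27 ± 0.16, edgeR adjusted p = 0.573), and elovl7 at 2.50 ± 0.606 against 3.22 ± 0.982 CPM (−0.36 ± 0.21, edgeR adjusted p = 0.576). The value of pnpla4 was 0.17 without ctl35B, and that of elovl7 −0.18 without ctl12C.

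**Figure D4:**
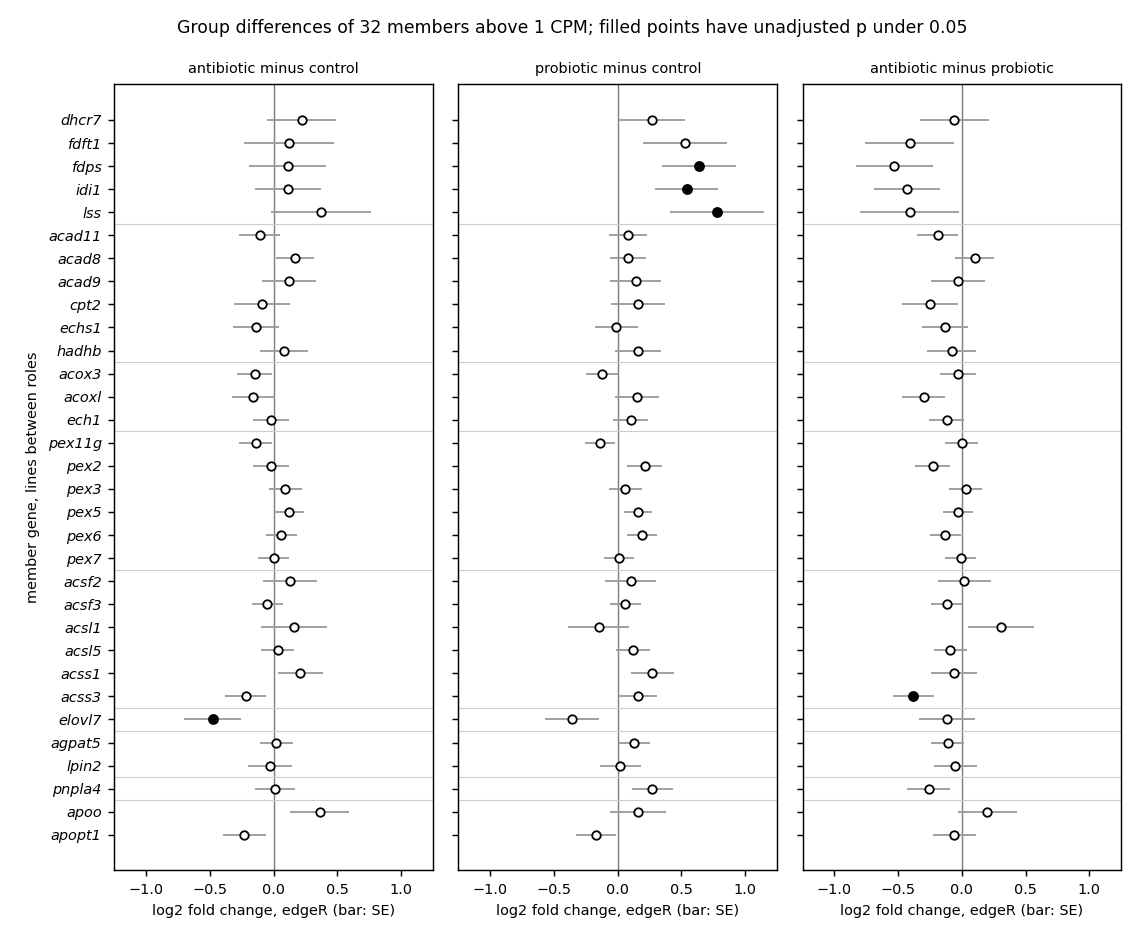
Log2 fold change with its SE (edgeR, all 17 fish in one fit) of the 32 members with 1 CPM or more in every fish, for 3 comparisons. Filled points have an unadjusted p under 0.05; these are elovl7 for antibiotic fish, fdps, idi1 and lss for probiotic fish and acss3 between the treatments, and none passed the adjusted threshold.

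Between the treatments, antibiotic against probiotic fish, edgeR called no gene (0%) and no member, and DESeq2 23 genes (0.0761%) and 0 members. One member, acss3, had an unadjusted p under 0.05, against 6.05% of genes. acss3, a mitochondrial short-chain acyl-CoA synthetase, was 45.9, 53.4, 56.7, 39.3 and 48.9 CPM in the antibiotic fish, from abx67A to abx91B, and 47.1 to 78.9 CPM (median 63.1) in probiotic fish. Its log2 fold change was −0.38 ± 0.16 (SE; edgeR adjusted p = 0.795), and 2 of 5 antibiotic fish lay below every probiotic fish. Of the 34 members 28 were lower in antibiotic fish, with a median of −0.10 beside 0.01 for all genes, of which 51.5% were higher. The 5 sterol genes were all lower, with a median of −0.41, which was −0.16 without pro139C and −0.12 without abx67C, abx91B, pro139B and pro139C together. No member separated the groups, against 0.374% of genes. The count of 1 member was 0 without pro115C, abx67A or abx91A, 0 without those 4 fish, 2 with only the 2 groups compared, and 4 without abx67B or pro115B. With the index plate column as a factor 10 members had an unadjusted p under 0.05, none was called, and the sterol median was −0.85. The share of all genes is given for the main fit only, so the 10 and the other counts from alternative fits cannot be set against a background. Antibiotic fish lay in plate columns 9 and 12 only, where the probiotic fish were pro139A and pro139C. Both treated groups were compared with the same controls.

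Of the mitochondrial oxidation genes, hadhb ranged from 192 to 369 CPM in controls (median 211) and from 210 to 349 in probiotic fish (median 252), and was 239, 333, 198, 200 and 257 CPM in antibiotic fish, from abx67A to abx91B. cpt2, which frees the acyl chain inside the mitochondrion, ranged from 41.6 to 110 CPM in controls (median 57.7), 48.2 to 65.9 in antibiotic fish (median 61.7) and 48.2 to 84.2 in probiotic fish (median 79.2). echs1 had medians of 147, 129 and 143 CPM in control, antibiotic and probiotic fish. Here 1 control, ctl12C, set the top: it was the highest of 17 fish for 5 of the 6 genes, and pro139C for acad9, an acyl-CoA dehydrogenase that in mammals also helps assemble respiratory complex I. The enterocyte markers summed to 16366 CPM in ctl12C, and their part in this was not tested. Both ctl12C and pro139C were among the top 3 fish for 6 of 6. ctl12B was among the lowest 3 fish for 5 of 6. acad11, a dehydrogenase of long chains, and acad8, a dehydrogenase of valine breakdown, had overlapping groups, acad11 with medians of 93.9, 81.1 and 99.4 CPM and acad8 with means of 13.6 ± 3.49, 15.3 ± 1.44 and 14.3 ± 1.43 CPM (SD) in the same order.

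The peroxisomal genes varied less than the sterol genes, with ratios of the highest to the lowest fish of 1.73 to 1.88 for the 3 oxidation enzymes. acox3 ranged from 262 to 392 CPM in controls (median 305), 263 to 315 in antibiotic fish (median 273) and 219 to 382 in probiotic fish (median 290). ech1, a dienoyl-CoA isomerase, had medians of 56.3, 57.0 and 66.2 CPM, and acoxl, an acyl-CoA oxidase-like protein, of 23.2, 22.4 and 27.7 CPM. Among the import receptors, pex5 ranged from 19.1 to 29.4 CPM and pex7 up to 19.2 CPM with a median of 16.2 over all fish. pex2, a ligase subunit that acts on the import receptor, stood at 6.23 to 11.5 CPM. pex6, an ATPase that recycles the receptor, spanned 8.12 to 12.2 CPM, pex3, a membrane anchor, 28.1 to 44.2 CPM, and pex11g, of the family that elongates the peroxisome membrane, 23.1 to 43.0 CPM. ctl12C was highest for 4 of the 6 peroxins.

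Across roles, hadhb and pex3 were the closest pair, with r = 0.91 (permutation p = 2e-05, adjusted 9.35e-04) and rho = 0.82 (adjusted permutation p = 0.00271) over 17 fish, and r = 0.86 without the 2 fish farthest from the hadhb median. The pair was r = 0.97 within controls, 0.96 within probiotic fish and 0.88 within plate column 12. In all, 190 of 561 pairs had an adjusted Pearson p under 0.05, 29 of them negative, and 153 passed by Spearman too. Of the 561 pairs 445 were positive. The same share was not computed for pairs of other genes, so these counts are not shown to be particular to the members.

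acsl1, a long-chain acyl-CoA synthetase, ran against many other members. It was 8.68 to 18.8 CPM in controls (mean 14.4 ± 4.02, SD, n = 6) and 16.6, 20.1, 10.6, 10.5, 11.5 and 8.42 CPM in probiotic fish, from pro115A to pro139C. In antibiotic fish it was 13.7 CPM in abx67A, 12.5 in abx67C, 24.8 in abx91A and 18.0 in abx91B, and lowest in abx67B. Its lowest fish were pro139C and ctl12C, where sterol or mitochondrial genes were highest. It had 19 negative partners and 1 positive one, apopt1, among the pairs with an adjusted Pearson p under 0.05. With lss, r was −0.87 (permutation p = 3e-05, adjusted 9.35e-04) and rho −0.87 (adjusted permutation p = 0.0016), r = −0.83 without the 2 fish farthest from the lss median, −0.93 with group means removed, −0.97 within controls, −0.89 within probiotic fish and −0.90 within plate column 12. apopt1, an assembly factor of cytochrome c oxidase, had 10 negative partners and 1 positive one, and was lowest in abx67B and highest, at 28.7 CPM, in pro115B. acsl5, the other long-chain synthetase, had 3 positive partners and no negative one, and ranged from 241 to 405 CPM.

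**Figure D5:**
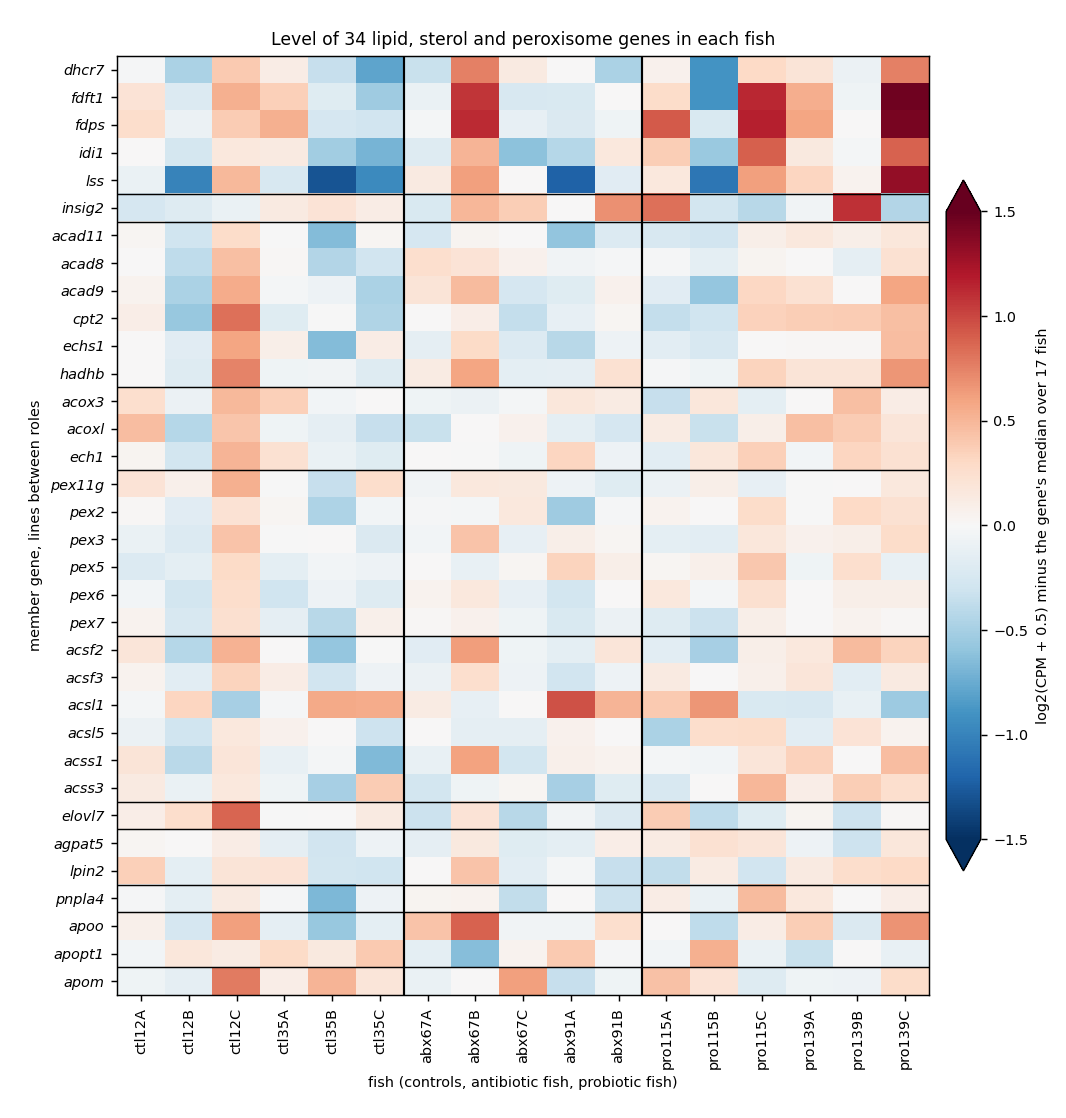
Log2(CPM + 0.5) of 34 members in 17 fish, minus each gene's median; rows are grouped by role and columns by group. pro139C, pro115C and abx67B are red over the 5 sterol genes, ctl12C over the mitochondrial genes and peroxins, and acsl1 is blue in pro139C (8.42 CPM) and ctl12C (8.68 CPM).

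The title numbers were compared within each group. The ctl12 and ctl35 fish differed in 0 members at an unadjusted edgeR p under 0.05, against 6.23% of 32619 genes. The abx67 and abx91 fish differed in 1 member, acsl1, against 7.09% of genes, with a log2 fold change of −0.77 (edgeR adjusted p = 0.654). The pro115 and pro139 fish differed in 1 member, again acsl1, against 9.34% of genes, with 0.64 (edgeR adjusted p = 0.506). No member was called. The direction still leaned within groups: 30 of 34 members had higher fitted means in ctl12 than in ctl35 fish (median log2 fold change 0.24 beside −0.01 for all genes), 24 were higher in abx67 than in abx91 fish (median 0.17 beside 0.003) and 24 were lower in pro115 than in pro139 fish (median −0.14 beside 0.03). For the 5 sterol genes the medians were 0.30, 0.49 and −0.39, with all 5 in that direction each time. Fish of the same number did not move together. fdps was 24.9, 55.7 and 23.2 CPM in abx67A to abx67C, and 21.7 and 24.3 in abx91A and abx91B. ctl12C was among the top 3 of 17 fish for 21 of 34 members, ctl12B among the bottom 3 for 19. For the 5 sterol genes pro115C was in the top 3 for 4 and pro115B in the bottom 3 for 5. These medians are not given without single fish. The lean between ctl12 and ctl35 fish, both controls, was larger over the members than the 27 of 34 and 0.13 between probiotic and control fish. It came from a separate fit with fewer fish on each side, and many members move together. The sizes of these leans are therefore not strictly comparable, and their difference was not tested. As each number lies in 1 group, a difference between groups and a difference between numbers cannot be told apart.

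The other acyl-CoA synthetases had overlapping groups. acsf2 had medians of 168, 161 and 183 CPM in control, antibiotic and probiotic fish, acss1 of 167, 181 and 187 CPM, acsl5 of 325, 334 and 366 CPM, and acsf3, which activates malonate, of 18.3, 17.4 and 19.9 CPM. For acss1 the log2 fold change against the shared controls was 0.21 ± 0.18 in antibiotic and 0.27 ± 0.17 in probiotic fish (SE; edgeR adjusted p = 0.871 and 0.588). The first was 0.04 without abx67B and 0.02 with the plate column as a factor, and the second 0.05 with smooth muscle as a covariate. Of the glycerolipid enzymes, agpat5, an acyltransferase, ranged from 6.25 to 9.25 CPM and lpin2, a phosphatidate phosphatase, from 23.3 to 40.8 CPM. apoo, a protein of the mitochondrial inner membrane despite its name, had medians of 31.8, 41.7 and 36.5 CPM and a log2 fold change of 0.36 ± 0.23 in antibiotic fish (SE; edgeR adjusted p = 0.841), which was 0.17 without abx67B, its highest fish, and 0.10 with the plate column. The only lipoprotein member, apom, had at most 0.699 CPM.

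Related genes outside the rule were counted in the same fits. Of 28 tested LOC genes whose RefSeq symbol matches the member name pattern, 18 were higher in antibiotic and 17 in probiotic fish. Their median log2 fold changes were 0.12 and 0.09. The LOC genes with such names include insig1, acadvl, apoeb and apoc2, and further genes named insig2, acad11 and pex5. Of 18 tested other sterol genes, 14 were higher in antibiotic and 14 in probiotic fish, with median log2 fold changes of 0.17 and 0.24. Of 14 other, mainly mitochondrial oxidation genes 6 were higher in each, with medians of −0.10 and −0.01. Their list also holds decr2 and ehhadh, which are peroxisomal enzymes. Of 26 other peroxisome genes 9 were higher in antibiotic and 18 in probiotic fish, with medians of −0.06 and 0.06. Of 7 fatty acid synthesis genes 4 and 6 were higher, with medians of 0.08 and 0.43. One of these, acaca, an acetyl-CoA carboxylase named after its values were seen, ranged from 3.92 to 9.17 CPM in the 6 controls (median 4.97) and from 4.86 to 19.6 CPM in the 6 probiotic fish (median 11.6), a log2 fold change of 0.98 ± 0.33 (SE; edgeR adjusted p = 0.446). edgeR called none of them, as it called no gene.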

How the data were processed

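The authors deposited 1 table of featureCounts read counts per gene for 17 hindgut libraries (total RNA by TRIzol, paired-end NovaSeq). Trimmomatic 0.38, HISAT2 and featureCounts are the tools named in the submitters' processing notes. The sources used here give no other version, genome build, strandedness or rule for multi-mapping reads. Salmonids carry many duplicated genes, and reads of near-identical copies could be split or lost.

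Depth is the sum over 42554 named genes, and 1 unnamed entry (0.155 to 0.523% of counts) was left out. filterByExpr kept 30221 genes. edgeR 4.0.16 in R 4.3.3 (TMM, robust quasi-likelihood F-test, group only, all 17 libraries, 2-sided) gave p-values, adjusted by Benjamini-Hochberg over all tested genes, with calls under 0.05. SE is the log2 fold change divided by the square root of F. Title numbers were compared in a second fit. The title number as a random block had a consensus correlation of 0.0404. Pair correlations used log2(CPM + 0.5) and 100000 permutations of fish. No 2 libraries were identical.

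Levels per length use the exon length of the table. LOC identifiers were named by a RefSeq table (assembly Otsh_v2.0), which holds 30285 of 38153 and gives a symbol to 6084. The plate column was read from the index names in the titles. Of 37 genes that match the membership rule, 2 are not reported here; they stayed in every fit over all genes and were left out of the counts, pairs and figures of members. The members and gene lists were chosen with earlier results of these data known. In each comparison the 10 members of smallest p, the leading member of each role and a list of hallmark genes may be named. Fold changes are printed for some of the 10 members of smallest p and for the sterol enzymes against controls. This is a narrower choice than first set, and for the rest levels are given. Counts were simulated with 100 genes changed 2-fold and 100 changed 4-fold in each comparison, all with a mean of at least 1 CPM. Noise was drawn for each gene separately, so no variation was shared between the genes of a fish. The test recovered 44% and 89% for antibiotic against control (29786 genes), 51% and 89% for probiotic against control (29828 genes) and 52% and 90% between the treatments (29811 genes). It also called 6, 11 and 3 unchanged genes. These rates need not hold for the real fish. Alternatives were DESeq2 1.42.0, limma 3.58.1 voom, other scalings and filters, added factors and fish left out. Python 3.11.15 with NumPy 2.4.6, pandas 2.3.3 and SciPy 1.17.1 made the tables.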

Additional observations from a re-analysis of the deposited data

Results flagged for a closer look

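A fish stood apart from the rest of its group, by Dixon's criterion at the 95% level, in 10 of 102 sets of a member and a group. About 1 in 20 would hold for independent sets of normally distributed values. These sets share fish and many members move together, so the count was not compared with chance. Of these 10, 5 were in the control ctl12C: cpt2 at 110 CPM (next control 66.3), hadhb at 369 (220), pex3 at 44.2 (32.7), pex5 at 27.0 (21.5) and elovl7 at 5.16 (3.23). In antibiotic fish they were fdft1 at 130 CPM in abx67B (next fish 61.8), fdps at 55.7 CPM in abx67B (24.9) and ech1 at 72.1 CPM in abx91A (57.4). In probiotic fish they were echs1 at 196 CPM in pro139C (next fish 144) and apopt1 at 28.7 CPM in pro115B (19.6). Fold changes without these fish are given for elovl7, fdft1 and fdps, and the medians of the mitochondrial genes and peroxins without ctl12C.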

How the results depend on the processing

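Of 2233 values from 33 settings, 2166 were classed as unchanged, 55 as moved and 12 as reversed. A count was classed as unchanged when it equalled the main count or lay within a set ratio of it. Counts of 0 that stayed 0 are among these. No member was called in any setting, title-number comparisons included. Genes called rose from 0 to 26, 34 and 23 with DESeq2 (antibiotic against control, probiotic against control, between treatments). The count was 1 for antibiotic fish with the plate column as a factor, and for probiotic fish 1 with only the 2 groups compared; over single fish left out it was 0 to 1 for probiotic fish.

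Members higher in antibiotic fish were 20, but 8 with the plate column, 8 with the smooth muscle score, and 9 to 24 over single fish left out. In probiotic fish they were 27, but 16 with the smooth muscle score, and 24 to 28 over single fish. Between the treatments they were 6, but 11 with the smooth muscle score, 15 without abx67C, abx91B, pro139B and pro139C, and 4 to 10 over single fish (4 without abx67B, 10 without abx91A).

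Antibiotic log2 fold changes that changed sign were dhcr7 −0.04, fdft1 −0.20, fdps −0.13 and idi1 −0.09 with the plate column, and fdft1 −0.22, fdps −0.17 and idi1 −0.10 with the smooth muscle score. Over single fish left out they ran from −0.02 to 0.33 for dhcr7, −0.22 to 0.21 for fdft1, −0.25 to 0.20 for fdps and −0.08 to 0.21 for idi1, each lowest without abx67B. In probiotic fish dhcr7 was −0.01 with the smooth muscle score. Causes were not tested beyond what each setting changes. The pair settings were chosen after seeing the data. No paired analysis was possible because the groups share no replicate numbers. Scaling moved the median of all genes by less than 0.1. Members under 1 CPM are limited by depth.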
